A study of Mus musculus with 16 samples.

Results

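The 10 genes followed here encode transcription regulators of photoreceptor identity, measured in bulk RNA-seq libraries of mouse retina: Nrl, Nr2e3, Crx, Otx2, Esrrb, Samd7, Samd11, Mef2d, Neurod1 and Rorb. They were taken by symbol from a table of FPKM values (read fragments divided by gene length and by library size) and by the same gene identifier from a table of read counts. All 10 were found in both tables, among 54532 genes in the first and 48440 in the second, and all 10 passed the filters on low values.

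The FPKM table holds 10 uninjected retinas: 3 from 12-month wildtype mice, 3 from 12-month mice with a substitution in Elovl2, and 4 from 18-month wildtype mice, the wildtype background being C57BL6/J. Elovl2 encodes an elongase that lengthens polyunsaturated fatty acids. The design text names the allele C234W and the sample labels write Elovl2C34W, and a change of a single residue cannot be checked from RNA levels. The count table holds 6 retinas of 18-month wildtype mice collected 5 days after an intravitreal injection, 3 given 0.36 nmol of the fatty acid 24:5 and 3 given vehicle in the fellow eye. The labels do not say which injected retinas came from the same mouse, or that every library of a group came from a separate one. P-values therefore set a difference against the spread between these libraries, which may be technical in part. The main test of the injected retinas did not use the pairing of fellow eyes.

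Libraries held 12810558 to 30519417 reads in the FPKM table, recovered from FPKM and gene length, and 22066668 to 25609242 reads in the count table. All 25 listed rod genes, 11 cone genes, 13 bipolar cell genes and 10 Müller glia genes were above 0 in every library. The listed microglia and endothelial genes were too, so presence alone does not check the label retina. The summed level of the rod genes was 20893 to 24147 FPKM in the uninjected libraries, beside 20.7 to 53.4 FPKM for the microglia genes. Marker genes of neighbouring tissue were read too. Rpe65, a marker of the pigment epithelium, averaged 9.26 to 15.9 FPKM in the uninjected groups. Cryaa, a lens crystallin, lay between 0 and 0.0844 FPKM there. In the injected libraries it lay between 22.6 and 963 TMM-normalised CPM (counts scaled to a fixed library total). Which cells this RNA came from was not tested.

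Photoreceptors are made and kept by a layered set of DNA-binding proteins. OTX2 commits progenitors to the lineage and, with the related homeodomain protein CRX, binds promoters and enhancers of photoreceptor genes. NRL sets the choice of rod over cone, and the nuclear receptor NR2E3, which acts downstream of NRL, represses cone genes in rods. RORB, NEUROD1, MEF2D and ESRRB act around these factors, and the SAM-domain proteins SAMD7 and SAMD11 belong to a Polycomb repressor complex of rods that keeps non-rod genes silent.

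The promoters of 4 members are shown because they belong to the members whose values the results turn on: Samd7 and Nr2e3, which varied most between injected libraries, Crx, which stood low in the same libraries as Nr2e3, and Samd11, whose injected groups did not overlap. They are RefSeq sequences on GRCm38.p6, read 5′ to 3′ on the strand of the gene, upstream of the RefSeq start and with annotated exon left out. Capitals mark matches to the motifs searched.
Samd7, chr3:30746043-30746292, plus strand: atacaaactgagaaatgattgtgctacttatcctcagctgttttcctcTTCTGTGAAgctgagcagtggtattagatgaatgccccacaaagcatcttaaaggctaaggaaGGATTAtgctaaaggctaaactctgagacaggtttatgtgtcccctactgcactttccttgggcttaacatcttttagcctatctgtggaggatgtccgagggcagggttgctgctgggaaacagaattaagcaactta
Nr2e3, chr9:59950118-59950329, minus strand: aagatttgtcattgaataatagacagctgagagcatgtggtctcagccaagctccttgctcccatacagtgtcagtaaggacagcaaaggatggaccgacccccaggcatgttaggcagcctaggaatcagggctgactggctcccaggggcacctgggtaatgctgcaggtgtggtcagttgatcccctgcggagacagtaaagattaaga
Crx, chr7:15879969-15880205, minus strand: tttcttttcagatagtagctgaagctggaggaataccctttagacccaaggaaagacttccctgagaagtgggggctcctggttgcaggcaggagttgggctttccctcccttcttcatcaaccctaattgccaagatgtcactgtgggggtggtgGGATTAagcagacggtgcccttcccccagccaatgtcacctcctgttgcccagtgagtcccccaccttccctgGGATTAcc
Samd11, chr4:156255353-156255567, minus strand: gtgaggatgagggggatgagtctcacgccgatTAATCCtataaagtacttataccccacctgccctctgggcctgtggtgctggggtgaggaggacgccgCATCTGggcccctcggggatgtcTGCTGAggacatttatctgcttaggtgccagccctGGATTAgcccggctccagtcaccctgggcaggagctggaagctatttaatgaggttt

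The motifs were searched on both strands of the 250 bases before each RefSeq start, in 15 windows that cover all 10 genes, and no matches overlapped. The core bound by CRX and OTX2, TAATCC, which reads GGATTA on the opposite strand, lay in 4 of 15 windows, one each of Crx, Otx2, Samd7 and Samd11, against 6.25% of 32851 windows over all genes. Crx held it 94 and 21 bases upstream of its start, Samd11 193 and 67 bases upstream, and Samd7 139 bases upstream. An NRL-type core, TGCTGA, lay in 5 of 15 windows, against 16.1% of all windows. The E-box CATCTG, of the kind NEUROD1 binds, lay in 14.4% of all windows. Among the members it was 125 bases upstream of Samd11, 19 bases upstream of Nrl and 59 bases upstream of a start of Otx2. The STAT pattern TTCNNNGAA lay in 3 of 15 windows, against 7.02% of all windows. It was 202 bases upstream of Samd7, 178 bases upstream of Esrrb and 113 bases upstream of a start of Otx2. The nuclear receptor core AGGTCA, found in 14% of all windows, was in none of the 15. The Nr2e3 window held no match to any of the 5 motifs. The deposited table draws Nr2e3 (chromosome 9, bases 59942771 to 59960659 of mm10, minus strand) further upstream than RefSeq does. The Nr2e3 window therefore lies within that gene span, and the Samd11 window likewise lies within the span given for Samd11. By the same table the other genes shown are protein-coding genes on chromosome 3, bases 30746293 to 30767174 (Samd7), chromosome 7, bases 15865947 to 15879968 (Crx), and chromosome 4, bases 156246966 to 156255657 (Samd11). Nrl lies on chromosome 14, bases 55518978 to 55524981, minus strand, and its RefSeq window is wholly annotated exon, so it is not printed.

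In uninjected retina the rod determinants led the set. Nrl had the highest mean level, 348 FPKM over the 10 libraries, place 49 of 13786 genes by mean FPKM. Crx followed with 272 FPKM and Nr2e3 with 234 FPKM. The lowest Nrl library, at 314 FPKM, lay above the highest Crx library, at 303 FPKM, while the Crx and Nr2e3 ranges overlapped. Neurod1, a basic helix-loop-helix factor that mature photoreceptors keep expressing, came next with 113 FPKM, and its range overlapped that of Samd11 at 97.4 FPKM. The Samd11 range in turn overlapped that of Mef2d, an activator of photoreceptor genes that works with CRX, at 66.2 FPKM. Otx2 at 46.6 FPKM, Esrrb at 46.0 FPKM and Samd7 at 37.7 FPKM could not be ordered beyond their spread. Rorb, a nuclear receptor upstream of Nrl, was lowest at 13.7 FPKM, and its highest library, 16.7 FPKM, lay below the lowest Samd7 library, 32.9 FPKM. Even Rorb stood above the median gene tested, which was at 6.39 FPKM.

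**Figure D1:**
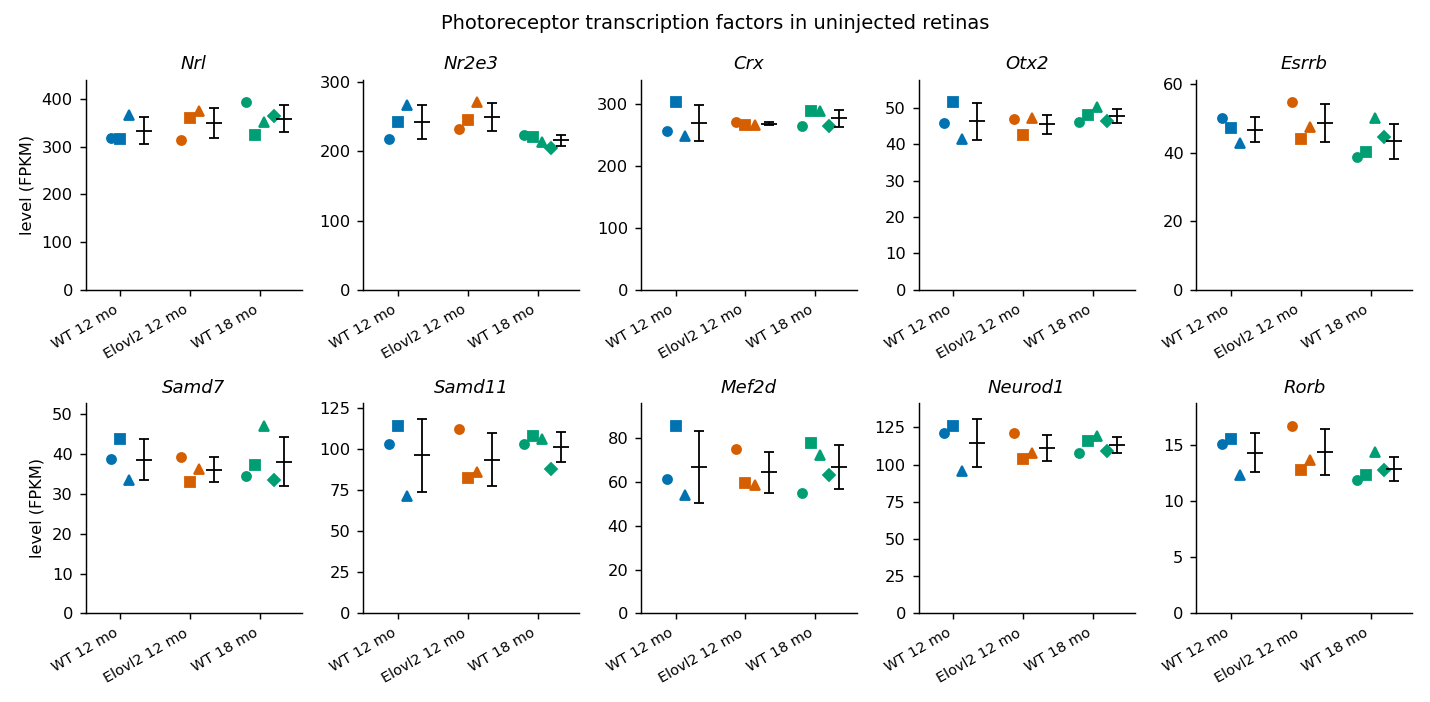
Level in FPKM (y axis, from 0) of each of the 10 genes in the 10 uninjected retinas, by group (x axis: 12-month wildtype, 12-month Elovl2 mutant, 18-month wildtype); points are libraries, their shapes replicate numbers, and the black bars mean and SD. The group ranges overlap in every panel except for Nr2e3, where the 18-month wildtype libraries (205 to 223 FPKM) lie below the mutant libraries (232 to 271 FPKM).

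The first question was whether the set changed between 12 and 18 months in wildtype retina. No member passed the test (limma, adjusted p under 0.05), and neither did any other gene of the 13786 tested (0%). At an unadjusted p under 0.05 limma found 503 genes, 3.65% of those tested, and no member among them. On reads recovered from FPKM, edgeR called 1 gene and DESeq2 called 7, none of them a member. With weights for library quality limma called 1246 genes, none a member. Of the 10 members, 5 were higher and 5 lower at 18 months. Their median log2 fold change was 0.0032 on the log2(FPKM + 1) scale, beside -0.0014 over all genes, and no member had groups without overlap, which 4.17% of genes did. In bulk retina, fewer cells of a type and less RNA per cell cannot be told apart.

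Nrl, the rod determinant, was at 317, 316 and 366 FPKM in 12-month and at 393, 325, 352 and 365 FPKM in 18-month wildtype libraries. The older mean was 1.08-fold the younger (95% interval 0.918 to 1.26), and the groups overlapped. Nr2e3 was at 218, 242 and 267 FPKM at 12 months and at 223, 221, 214 and 205 FPKM at 18 months. These groups overlapped through the lowest 12-month library, and the log2 difference was -0.16 (SE 0.0924, limma adjusted p = 0.9999). Crx was at 257, 303 and 248 FPKM at 12 months and at 265, 289, 289 and 264 FPKM at 18 months, a fold of 1.03 (95% interval 0.897 to 1.18). The older libraries of Crx all lay within the younger range. For Otx2, the fold was 1.03 (95% interval 0.908 to 1.18). Across the other 6 genes the log2 difference ran from -0.14 for Rorb to 0.093 for Samd11. The intervals set the limit of what 3 against 4 libraries could show: the widest, for Mef2d, ran from 0.774-fold to 1.32-fold.

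The second comparison asked whether the Elovl2 mutant at 12 months differed from wildtype of the same age. No member passed, and again no gene did (limma, 0% of 13786). There were 302 genes at an unadjusted p under 0.05 by limma (2.19%), none a member, and edgeR and DESeq2 on recovered reads each called 0. With weights for library quality limma called 2598 genes, none a member. Members split 4 higher and 6 lower in the mutant, and their median log2 difference was -0.0099 beside -0.0060 over all genes. None had groups without overlap, beside 5.97% of genes. Nrl was at 314, 359 and 374 FPKM in the mutant, and the fold against wildtype was 1.05 (95% interval 0.883 to 1.24). Nr2e3 was at 232, 246 and 271 FPKM, a fold of 1.03 (95% interval 0.886 to 1.2). For both rod determinants the mutant and wildtype ranges overlapped over most of their length. Crx had nearly the same mean in the mutant (268 ± 2.42 FPKM, SD, n = 3) as in wildtype (269 ± 29.1 FPKM, SD, n = 3), with 271, 267 and 267 FPKM in the mutant libraries. The largest difference in size was that of Samd7, at -0.091 on the log2 scale (SE 0.139, limma adjusted p = 0.9998), but it was -0.00063 without wildtype replicate 2 and -0.19 without wildtype replicate 3.

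The 18-month wildtype and the 12-month mutant libraries could also be set against each other. Both had already been compared with the same 12-month wildtype libraries, so the 3 comparisons share libraries and are not independent. No member passed and no gene did (limma, 0% of 13786). At an unadjusted p under 0.05 there were 295 genes (2.14%), 152 of them lower (1.10%), and Nr2e3 was the member among these lower genes. On recovered reads edgeR called 0 genes and DESeq2 called 18, none a member. Here Nr2e3 was the exception in its ranges: every 18-month wildtype library (205 to 223 FPKM) lay below every mutant library (232 to 271 FPKM). The mean was 216 ± 7.77 FPKM (SD, n = 4) against 249.8 ± 19.3 FPKM (SD, n = 3), a fold of 0.866 (95% interval 0.750 to 0.999). That difference was -0.21 on the log2 scale (SE 0.0924, unadjusted p = 0.0483) and did not pass after adjustment over all genes (limma adjusted p = 1). Of all genes tested, 2.37% were separated in this direction, so 1 such gene among 10 members is no result about the set. The other 9 members overlapped, 7 of them higher and 2 lower in 18-month wildtype, and the largest of their differences was that of Esrrb, -0.17 (SE 0.109), which was -0.08 without mutant replicate 1. Esrrb, an orphan nuclear receptor that supports rod survival, was at 38.7, 40.1, 50.1 and 44.5 FPKM in 18-month wildtype and at 54.7, 43.9 and 47.5 FPKM in the mutant.

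**Figure D2:**
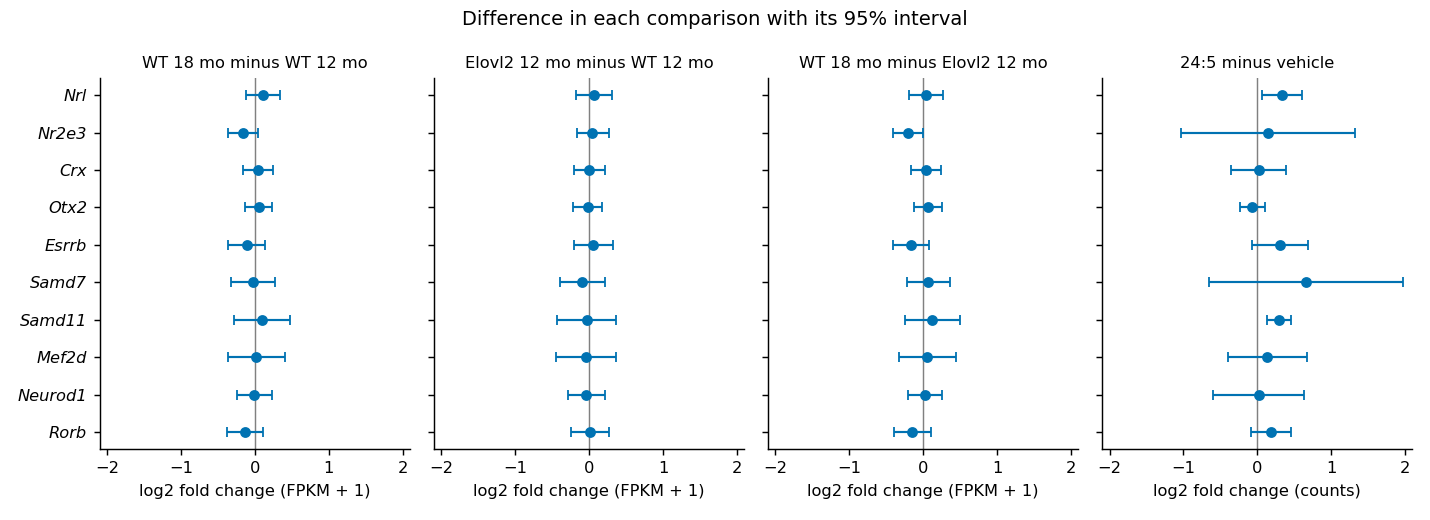
Difference of each gene (y axis) in the 4 comparisons, as log2 fold change (x axis; log2(FPKM + 1) in the first 3 panels, counts in the last), with bars for the 95% interval. Intervals in the uninjected panels cross 0 except that of Nr2e3 in 18-month wildtype minus mutant, which ends at -0.0019, and among the injected ones those of Nrl and Samd11 lie above 0.

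Supplementation with 24:5 was compared with vehicle in the count table, where levels are given as TMM-normalised CPM and compared between libraries, not between genes. No member passed the test (edgeR quasi-likelihood, adjusted p under 0.05). Of 17466 genes 2 did (0.0115%), and both belong to the interferon-response list. At an unadjusted p under 0.05 there were 1154 genes (6.61%), 252 of them higher (1.44%), and 2 of the 10 members were among these higher genes, Nrl and Samd11. DESeq2 called 245 genes, none a member. Members were higher with 24:5 in 9 of 10 cases, beside 8878 of the 17466 genes tested. Their median log2 difference was 0.17 beside 0.0028 over all genes. These counts are not independent, because all members were read in the same libraries and some varied together. Over the injected libraries Nrl and Samd11 had a correlation of 0.95, while other pairs ran down to -0.97 (Crx and Neurod1). Whether the set rose as a whole was not tested.

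Samd11 was the member with the most separated groups. It was at 218, 241 and 214 CPM with vehicle and at 278, 263 and 281 CPM with 24:5, so that no vehicle library reached the lowest supplemented one. Its log2 fold change was 0.29 (SE 0.0717, 95% interval 0.13 to 0.46, edgeR adjusted p = 0.328), higher in all 3 supplemented libraries. Groups without overlap in this direction were seen for 4.82% of all genes. Samd11 shares 598 of its 3588 exon bases with Noc2l and 426 with Gm47252, both on the opposite strand, and the strand setting of the counting is not given in the sources used here. Without strand, reads in the shared bases cannot be assigned to one gene.

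Nrl was at 1108, 1394 and 1032 CPM with vehicle and at 1580.0, 1362 and 1521 CPM with 24:5. The groups overlapped, because the second vehicle library stood above the lowest supplemented one. The log2 fold change was 0.34 (SE 0.119, 95% interval 0.061 to 0.61, edgeR adjusted p = 0.608). Crx was at 736, 823 and 567 CPM with vehicle and at 839, 639.9 and 679 CPM with 24:5, and its log2 difference of 0.022 was small beside that spread (SE 0.157, edgeR adjusted p = 0.9974). Otx2 was the steadiest member, at 174, 182 and 193 CPM with vehicle and at 181, 177 and 164 CPM with 24:5. It was also the only member with a lower mean after 24:5, by a log2 difference of -0.069 (SE 0.0726). Esrrb was 1.24-fold higher (95% interval 0.954 to 1.61) and Rorb 1.14-fold (95% interval 0.940 to 1.38), both with overlapping groups. Single libraries moved both: the log2 difference of Esrrb, 0.31, was 0.18 without supplemented replicate 2 and 0.44 without supplemented replicate 1. That of Rorb, 0.19, was 0.076 without vehicle replicate 1 and 0.3 without vehicle replicate 3.

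Nr2e3 is known to differ among the injected libraries and entered the set with that in view, so its values there are a description. It was at 567, 603 and 232 CPM with vehicle and at 756, 390.1 and 405 CPM with 24:5. One vehicle library lay below all others, and one supplemented library lay above all others. The group difference was 0.15 on the log2 scale (95% interval -1.03 to 1.32), so neither a fall to 0.488-fold nor a rise to 2.5-fold lies outside it. Samd7 had the same width of spread in the opposite sense, at 177, 212 and 317 CPM with vehicle and at 152, 435 and 530.4 CPM with 24:5. Its log2 difference was 0.66 (SE 0.514, 95% interval -0.65 to 1.97, edgeR adjusted p = 0.977), and ran from 0.32 without supplemented replicate 3 to 1.03 without supplemented replicate 1. The highest and lowest injected libraries differed 3.49-fold for Samd7 and 3.26-fold for Nr2e3, against 1.18-fold for Otx2. Only 6.95% of genes had a larger SD of log2 CPM over these 6 libraries than Samd7, and 10.8% a larger one than Nr2e3. In the uninjected retinas 36.1% and 52.9% of genes had a larger SD than Samd7 and Nr2e3, and the highest and lowest libraries differed 1.43-fold and 1.32-fold. Those shares were taken on log2(FPKM + 1) over 13786 genes. The injected shares were taken on log2 CPM with a smaller added constant over 17466 genes, so the shares are not on one scale.

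**Figure D3:**
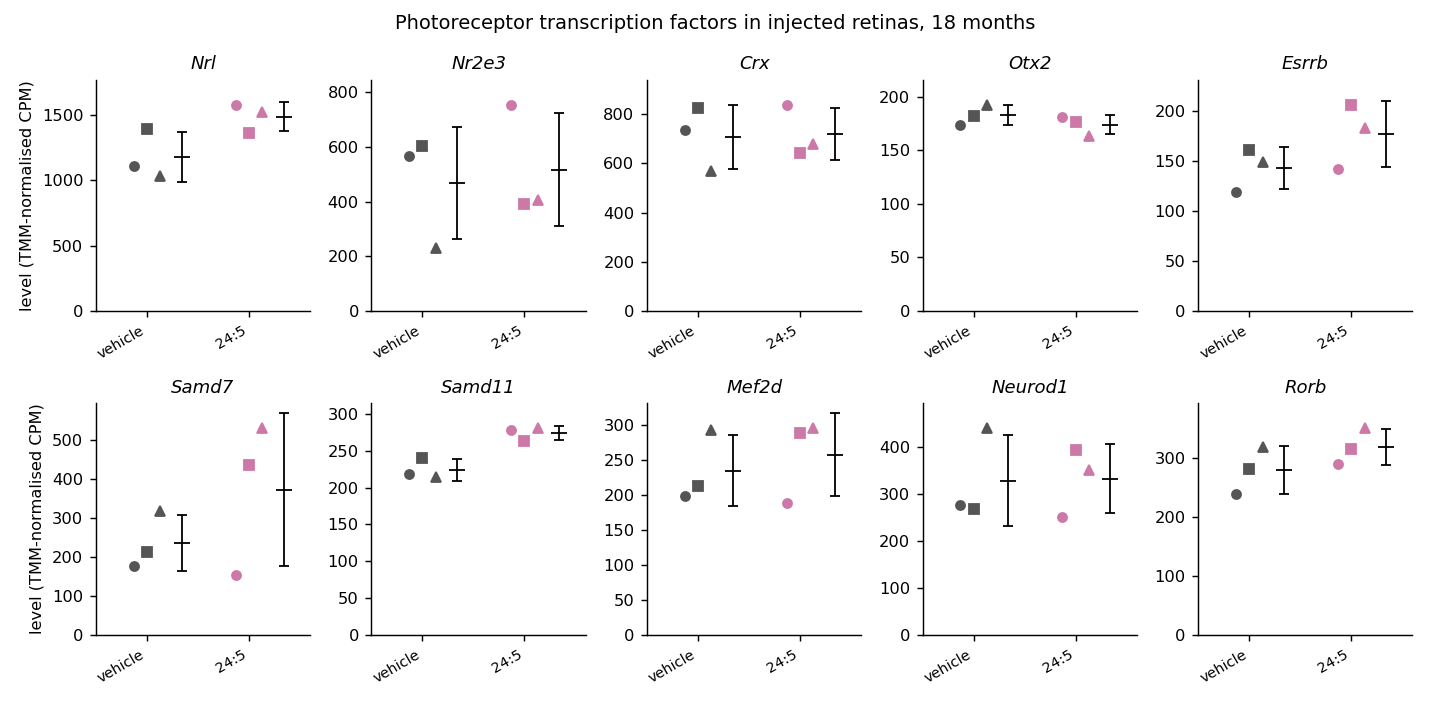
Level in TMM-normalised CPM (y axis, from 0) of each gene in the 6 injected 18-month retinas, by group (x axis: vehicle, 24:5); points are libraries, their shapes replicate numbers, and the black bars mean and SD. Samd11 is the panel whose groups do not overlap, and Nr2e3 and Samd7 are the panels with the widest spread within a group.

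The spread followed a split of the libraries that the labels do not name. Irf9, a subunit of the interferon-activated factor ISGF3, reached 228 CPM in the third vehicle library and 205 and 158 CPM in supplemented replicates 2 and 3, and lay at 61.4, 56.7 and 22 CPM in the rest. In the same 3 libraries Samd7, Mef2d, Neurod1 and Rorb each had their 3 highest values, and Nr2e3 and Crx their 3 lowest. Mef2d, for one, was at 289 to 296 CPM in those libraries and at 189 to 213 CPM in the others, and Neurod1 at 351 to 439 CPM against 251 to 276 CPM. Thus 6 of 10 members were divided this way, or 5 of 9 without Nr2e3, whose injected values were known when it entered the set, beside 30.3% of all genes tested. The split crosses the treatment, with 1 vehicle and 2 supplemented libraries on one side, and it was read from these values, so no test was made on it. Stat3, which encodes a signal transducer of cytokine receptors and was picked after its values were seen, was at 362, 369 and 406 CPM in those libraries and at 211, 201 and 103 CPM in the others.

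Marker sums moved across the injected libraries as well. The summed level of the 11 interferon-response genes was 564 to 993 CPM with vehicle and 285 to 723 CPM with 24:5. Of these genes, 10 of 11 had a lower mean with 24:5. This sum did not follow the Irf9 split throughout: supplemented replicate 3 was at 544 CPM, below vehicle replicates 1 and 2 at 579.5 and 564 CPM. The 11 gliosis genes summed to 1789.8 to 2824 CPM with vehicle and 801 to 2425 CPM with 24:5. Gfap among them was at 119, 103 and 159.9 CPM with vehicle and 49.9, 142 and 115 CPM with 24:5. The gliosis sum did not follow the split throughout either: supplemented replicate 3, at 2213 CPM, lay below vehicle replicate 1, at 2247 CPM. The 11 microglia genes summed to 173 to 286 CPM with vehicle and 89.0 to 148 CPM with 24:5, without overlap, and 11 of 11 were lower. The 13 lens genes summed to 233 to 2199 CPM with vehicle and 161 to 827 CPM with 24:5, with Cryaa at 784, 963 and 63.4 CPM and then 307, 64.2 and 22.6 CPM. Cryaa was thus low in the 3 libraries that were high in Irf9, and at most 1 lens gene was at 0 in a library. Müller glia genes summed to 3691 to 4746 CPM with vehicle and 3486 to 4654 CPM with 24:5. The 9 ganglion cell genes summed to 907 to 995 CPM with vehicle and 1028 to 1120.3 CPM with 24:5, also without overlap. Of these genes, 9 of 9 had a higher mean with 24:5 (median log2 difference 0.14). How often sums of other genes separate was not computed. The 10 endothelial genes summed to 483 to 569 CPM with vehicle and 404 to 483 CPM with 24:5, and 9 of 10 were lower. What part any of these had in the members' values was not tested.

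A split was also seen among the uninjected retinas. Malat1, a long nuclear RNA chosen here after its values were seen, was at 229 to 377 FPKM in 5 libraries (12-month wildtype replicates 1 and 2, mutant replicate 1, and 18-month wildtype replicates 2 and 3) and at 85.7 to 150.0 FPKM in the other five. Nrl had its 5 lowest values in those libraries, 314 to 352 FPKM against 359 to 393 FPKM. Neurod1 (116 to 126 FPKM against 96.0 to 109 FPKM) and Samd7 (37.2 to 47.1 FPKM against 32.9 to 36.2 FPKM) had their 5 highest. So did Samd11, but narrowly (103 to 114 FPKM against 71.3 to 103 FPKM), with the nearest libraries equal at this precision. These are 4 of 10 members, beside 22.5% of all genes. All 3 groups had libraries on both sides, and the part of this split in the comparisons was not tested.

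**Figure D4:**
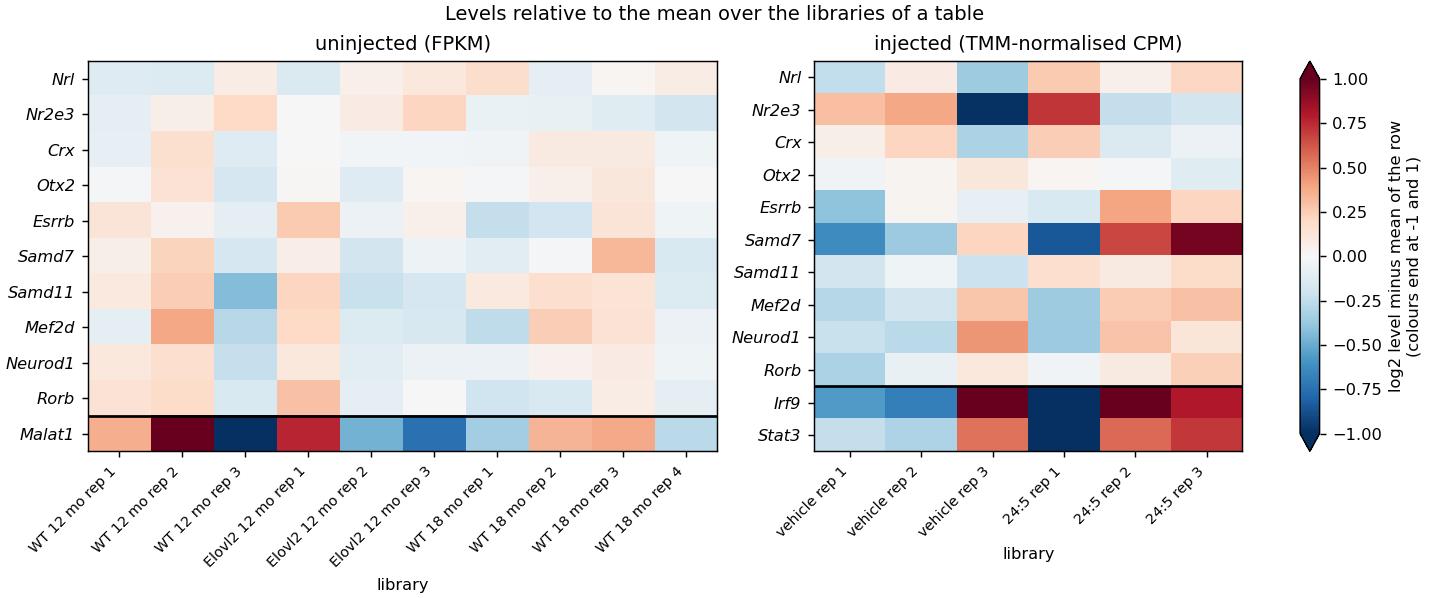
Log2 level minus the mean over the libraries of its table (colour, red above and blue below, ends at -1 and 1) for each gene (rows) in each library (columns), uninjected on the left and injected on the right, with Malat1, Irf9 and Stat3 under the line. In the injected panel vehicle replicate 3 and 24:5 replicates 2 and 3 are red for Irf9, Samd7, Mef2d and Neurod1 and blue for Nr2e3 and Crx.

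Ratios within a library remove the scaling between libraries. Per length, the level of Nr2e3 relative to Nrl was 0.687, 0.767 and 0.728 in 12-month wildtype, 0.741, 0.685 and 0.724 in the mutant, and 0.566, 0.680, 0.609 and 0.563 in 18-month wildtype. Each 18-month library thus lay below each 12-month library of either genotype (0.680 and 0.685 at the nearest). Relative to Crx, Nr2e3 at 18 months (0.742 to 0.839) overlapped 12-month wildtype (0.800 to 1.07) and lay below the mutant (0.858 to 1.02). The ratio of Nr2e3 to Nrl was chosen among several after the values were seen and carries no test. Crx relative to Nrl overlapped between the ages (0.675 to 0.890 at 18 months, 0.678 to 0.959 at 12 months). So did Neurod1 relative to Nrl and Samd7 relative to Nr2e3. The share of gene pairs with such a separation was not computed. In the injected retinas Nr2e3 relative to Nrl was 0.865, 0.731 and 0.380 with vehicle and 0.808, 0.484 and 0.449 with 24:5. It was lowest in the 3 libraries high in Irf9. The 2 SAM-domain genes kept a narrow ratio in uninjected retina, with Samd7 at 0.336 to 0.468 of Samd11 per length. With injection the ratio was 0.732, 0.790 and 1.33 with vehicle and 0.490, 1.48 and 1.69 with 24:5. The tables come from separate processing and were not tested against each other. Otx2 relative to Crx, the pair of related homeodomain genes, lay between 0.159 and 0.178 in the uninjected libraries and between 0.162 and 0.255 in the injected ones, highest in vehicle replicate 3.

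**Figure D5:**
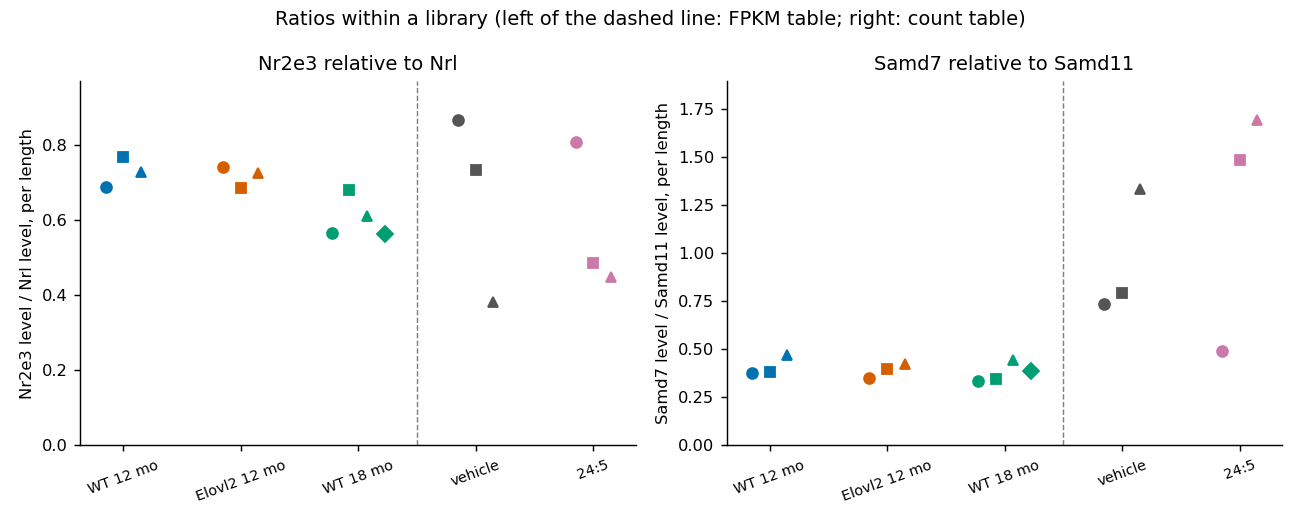
Ratio of levels per length within each library (y axis, from 0) for Nr2e3 over Nrl and Samd7 over Samd11, by group (x axis), with uninjected libraries left of the dashed line and injected ones right of it; shapes are replicate numbers. The 18-month wildtype ratios of Nr2e3 to Nrl, 0.563 to 0.680, lie below the 12-month ones, 0.685 to 0.767.

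The genes that these regulators act on gave a background for the members. Of 25 rod genes, 17 were higher and 8 lower at 18 months, and none passed. In the mutant, 18 of 25 rod genes were higher and none passed. Reep6, a membrane-shaping protein of rods, was at 367 ± 8.68 FPKM there against 319 ± 31.1 FPKM in wildtype (SD, n = 3 each), a log2 difference of 0.21 (SE 0.0901, limma adjusted p = 0.9998), in a direction in which 3.05% of genes had groups without overlap. Between 18-month wildtype and the mutant, 12 were higher and 13 lower. With 24:5, 24 of 25 rod genes had a higher mean (median log2 difference 0.16), and none passed. The smallest unadjusted p among them belonged to Rom1 and Guca1b. Rom1, an outer segment disc protein, averaged 1877 ± 38.2 CPM in vehicle retinas and 2183 ± 112 CPM in supplemented ones (SD, n = 3 each), a log2 difference of 0.22 (SE 0.0657, edgeR adjusted p = 0.459). Guca1b, an activator of guanylate cyclase, was at 821 ± 41.9 CPM against 705 ± 26.6 CPM (SD, n = 3 each). The summed rod level was 59428 to 69379 CPM with vehicle and 69851 to 73226 CPM with 24:5, without overlap.

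Cone genes, which NR2E3 represses in rods, did not pass in any comparison either. Of 11, 8 were higher at 18 months, 6 in the mutant, 6 in 18-month wildtype against the mutant and 8 with 24:5. Opn1sw, the short-wavelength cone pigment, was at 163 ± 3.48 FPKM in the mutant and 146 ± 5.44 FPKM in wildtype (SD, n = 3 each), without overlap, and did not pass (limma adjusted p = 0.9998). Arr3, cone arrestin, averaged 102 ± 22.8 CPM in vehicle retinas and 132 ± 15.1 CPM in supplemented ones (SD, n = 3 each), with overlap.

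Among 19 other photoreceptor regulators, 10 were higher at 18 months, 13 in the mutant, 5 in 18-month wildtype against the mutant and 15 with 24:5, and none passed. Prdm1, which holds young photoreceptors back from a bipolar fate, had a 12-month mean of 1.47 ± 0.318 FPKM (SD, n = 3) and an 18-month mean of 0.960 ± 0.121 FPKM (SD, n = 4), near the filter on low values. Tbx2, a regulator of short-wavelength cone fate, was at 19.9 ± 1.45 FPKM in the mutant and 17.4 ± 0.819 FPKM in wildtype (SD, n = 3 each), without overlap. Of 11 Polycomb genes, partners of SAMD7 and SAMD11, 10 were tested in the uninjected libraries, with 5 higher and 5 lower in each comparison. With 24:5, 9 of 11 were higher (median log2 difference 0.040), and none passed.

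The genes with the most similar pattern to the 3 rod regulators were ranked by the lower of 2 Pearson correlations of log2 level, one over the 10 uninjected and one over the 6 injected libraries, among 12861 genes tested in both tables. The correlations serve as a ranking only, since the points share libraries that fall into sets, and carry no p. Nrl was followed by Rdh12, a retinol dehydrogenase (0.940 and 0.956), Rheb, a small GTPase (0.924 and 0.981), and Prph2, an outer segment rim protein (0.916 and 0.996). The nearest genes to Nr2e3 were Eri3 (0.842 and 0.974), the histone gene Hist1h1c (0.816 and 0.863) and the DNA repair gene Xrcc5 (0.814 and 0.826). For Crx they were the homeobox gene Zfhx4 (0.906 and 0.974), the phosphatase gene Alpl (0.938 and 0.897) and Lca5, a gene of the connecting cilium (0.880 and 0.932).

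Some further members share exon bases with neighbours. Reads in bases shared with a gene on the opposite strand carry the same limit as those of Samd11, and a strand setting does not separate reads in bases shared on the same strand. Mef2d shares 531 of 5985 exon bases with 1700113A16Rik on the opposite strand. Neurod1 shares 201 of 2729 with Cerkl on the same strand and 154 with Gm26755 on the opposite one, and Otx2 shares 154 of 4221 with Otx2os1 on the opposite strand and 168 with Gm49154 on its own. Nr2e3 shares 61 of 3369 with Gm15507 on the same strand.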

How the data were processed

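Poly(A) RNA of whole mouse retina was sequenced from strand-marking libraries, per the labels' protocols. The table of the 10 uninjected retinas holds FPKM, per the file headers, with gene length, symbol and mm10 coordinates. The table of the 6 injected retinas holds raw counts per gene as deposited. HISAT2 2.2.1, featureCounts 2.0.6 and DESeq2 1.42.0 on mm10 are named in the submitters' processing notes, with no role or order. FPKM times length gave whole reads for 100.0% of values within 0.02. All 37 mitochondrial genes of the count table are at 0.

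FPKM were tested with limma 3.58.1 (trend, robust) in R 4.3.3 on log2(FPKM + 1), for the 13786 genes with a mean of at least 1 FPKM, with the 3 uninjected groups in one fit. This scale understates fold changes of genes at low levels. For the counts, edgeR 4.0.16 was used on 17466 genes (TMM, filterByExpr, robust quasi-likelihood). All p-values are two-sided, adjusted by Benjamini-Hochberg over every gene tested, with a threshold of 0.05. Both fits were tested on simulated data. All 10 members are given in every comparison. Of the other lists, genes among the 4 with the smallest p in a comparison could be named, and of marker lists the sums with Gfap, Irf9, Cryaa and Rpe65. Some genes that this rule allows are not reported here. Members and lists were chosen with earlier results of these data known. Within groups, no pair of libraries agreed within sampling noise. Alternatives were another pseudocount, normalisation, filter and tool, library weights, a replicate block and each library left out in turn.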

Additional observations from a re-analysis of the deposited data

How the results depend on the processing

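Under the alternatives the 40 member differences (10 genes in 4 comparisons) were recomputed 590 times. None passed the threshold, and the smallest adjusted p was 0.0547, for Neurod1 in the mutant with limma and library quality weights. In that fit the limma adjusted p was 0.0568 for Nr2e3, 0.0655 for Samd11, 0.0700 for Nrl and 0.0950 for Rorb. For the remaining members it was 0.158 to 0.761. Direction was kept under every alternative for 19 of the 40, and 67 of the 590 values changed sign. Apart from single libraries, signs changed with age for Crx (-0.011) and Mef2d (-0.045) under quantile normalisation and Samd11 (-0.044) under library weights. In the mutant they changed for Crx under TMM-rescaled FPKM (0.0015), edgeR (0.00047), weights (0.043) and DESeq2 (0.004), for Nr2e3 under quantile normalisation (-0.005), and for Esrrb (-0.13) and Rorb (-0.17) under weights. For 18-month wildtype against the mutant, Nrl changed under weights (-0.019). With 24:5, Crx changed under library-size scaling (-0.013) and weights (-0.13), Neurod1 under library-size scaling (-0.019) and Nr2e3 under weights (-0.21).

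With 1 library left out, log2 differences with age ran from -0.013 to 0.13 for Crx, -0.12 to 0.2 for Mef2d, -0.13 to 0.067 for Neurod1, -0.027 to 0.13 for Otx2, -0.11 to 0.23 for Samd11 and -0.13 to 0.066 for Samd7. In the mutant they ran from -0.056 to 0.086 for Crx, -0.031 to 0.12 for Esrrb, -0.17 to 0.15 for Mef2d, -0.16 to 0.039 for Neurod1, -0.028 to 0.12 for Nr2e3, -0.094 to 0.059 for Otx2, -0.1 to 0.083 for Rorb and -0.23 to 0.11 for Samd11. For 18-month wildtype against the mutant they ran from -0.023 to 0.17 for Mef2d, -0.016 to 0.091 for Neurod1, -0.035 to 0.091 for Nrl and -0.037 to 0.13 for Samd7. With 24:5 they ran from -0.11 to 0.14 for Crx, -0.13 to 0.29 for Neurod1 and -0.24 to 0.37 for Nr2e3. Members that kept their sign moved too, with age from 0.061 to 0.18 for Nrl, -0.24 to -0.091 for Nr2e3, -0.18 to -0.06 for Esrrb and -0.24 to -0.079 for Rorb, in the mutant from 0.015 to 0.14 for Nrl, and with 24:5 from 0.26 to 0.47 for Nrl, 0.26 to 0.34 for Samd11, 0.02 to 0.33 for Mef2d and -0.11 to -0.022 for Otx2.

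The number of genes called moved more. With age it was 0, and 4 without the filter, 1 with edgeR, 1246 with weights and 7 with DESeq2 (an alternative chosen after seeing the data). In the mutant it was 0, and 4 without the filter and 2598 with weights. For 18-month wildtype against the mutant it was 0, and 1 without the filter, 5 with weights, 2 with only the compared groups and 18 with DESeq2. With 24:5 it was 2, and 245 with DESeq2, 85 without the filter and 11 with weights. Leaving out 1 injected library gave 0 to 105: 105 without vehicle replicate 3, 1 without supplemented replicate 1 and 0 without any other. The cause was not tested.

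Whether equal replicate numbers mark paired libraries is not given by the labels, and correlations over so few libraries cannot decide it. Same-numbered libraries had correlations of their deviations of -0.05, 0.42 and -0.39 with age and 0.18, -0.42 and 0.51 in the mutant. They were -0.47, -0.21 and -0.34 for 18-month wildtype against the mutant, and 0.4, -0.2 and 0.42 with 24:5. Injected libraries with unlike numbers ran from -0.53 to 0.34, below 0.4 and 0.42 but on both sides of -0.2. A replicate block gave 88 called genes with 24:5 and 0 in the other comparisons, called no member, and changed the sign with age of Samd7 (0.03) and Neurod1 (0.0071).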
